A study of Mus musculus with 35 samples.

Results

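The 45 genes described here are the immediate-early, NF-kB feedback and heat-shock genes on a fixed list of symbols. They were looked up in bulk RNA-seq of sorted mouse liver macrophages (macs), and a gene was kept where it exceeded 1 CPM, the usual unit of counts scaled to the total of the library, in at least 5 of the 35 samples. All 45 of the 45 listed symbols were in the files and passed, of 54735 symbols in the files and 13421 that passed. Nearest to the threshold lay *Nr4a3*, which exceeded 1 CPM in 9 samples and had no count in 2 samples, and no listed gene fell outside. The samples came from livers of male C57Bl/6J mice that were fed, from 5 weeks of age, a standard diet (SD) or a Western diet (WD) rich in fat and cholesterol with sugars in the drinking water. Resident Kupffer cells (ResKCs, CLEC4F+TIM4+) were sorted from SD-fed mice at 12 weeks of diet (7 samples) and 24 weeks (6 samples), and from WD-fed mice at 12 weeks (5 samples) and 24 weeks (6 samples). Monocyte-derived Kupffer cells (moKCs, CLEC4F+TIM4-, 5 samples) and CLEC4F- macs (6 samples) were sorted from WD-fed mice at 24 weeks. For the 5 samples titled as WD at 12 weeks, the label field for diet gives the standard diet instead, and the titles were followed. Under the paper's general protocol, livers were perfused with collagenase, minced and digested warm, and later steps were done in the cold. Which samples were digested in the same session is not given in the sources used here.

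Immediate-early genes are transcribed within minutes of a stimulus without new protein synthesis, mostly through transcription factors that are already present, such as SRF, CREB and NF-kB. Their products include the FOS, JUN, ATF and MAF proteins that dimerise as AP-1 and related factors, the EGR, KLF and NR4A factors, and feedback inhibitors that end the signal, such as the DUSP phosphatases, the RNA-decay factor ZFP36 and the NF-kB inhibitor encoded by *Nfkbia*. Heat-shock genes encode chaperones and are switched on by heat-shock factor when proteins misfold. Both groups are known to be induced in macs by inflammatory stimuli and in many cell types by warm enzymatic dissociation of tissue.

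Where a RefSeq promoter could be matched (36 of the 45 genes and 9964 of the genes tested), the 250 bases before the start site were searched on both strands for the sites through which such genes are known to respond. The cAMP response element (CRE, TGACGTCA) was found in *Dusp1*, *Btg2*, *Maff* and *Ppp1r15a*, which is 11.1% of the matched genes against 2.96% of all matched genes tested. The CArG box, which SRF binds, was found in *Egr2*, *Dusp5* and *Zfp36* (8.33% against 1.34%). NF-kB sites were found in 9 genes (25.0% against 10.5%), among them *Nfkbia*, *Fos*, *Fosb*, *Ier3* and *Tnfaip3*. The AP-1 site TGANTCA was found in *Tnfaip3* and *Csrnp1* (5.56% against 5.75%). The heat-shock element (GAA, 2 bases of any kind, TTC, 2 more such bases and GAA, or the reverse complement) was found in 0 of the matched genes against 0.472% of all. Only exact matches were counted, so inexact elements would be missed, and elements may also lie outside this window. Of the 8 heat-shock genes, 6 had a matched promoter. Such matches describe letters only. Shown here, 5′ to 3′ on the gene's strand from RefSeq GRCm38.p6, are the windows of 4 genes that fell with the WD at 24 weeks, with the matched site in capitals and without bases that GENCODE M21 places in an exon of the gene. For *Zfp36* only the 30 bases around the site are shown, because the whole window lies in such an exon.
Dusp1 (chr17:26508520-26508722, minus strand, CRE): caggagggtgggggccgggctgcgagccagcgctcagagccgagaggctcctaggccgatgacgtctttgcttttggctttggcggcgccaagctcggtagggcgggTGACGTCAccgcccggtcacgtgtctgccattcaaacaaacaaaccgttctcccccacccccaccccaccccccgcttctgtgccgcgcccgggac
Btg2 (chr1:134079156-134079405, minus strand, CRE): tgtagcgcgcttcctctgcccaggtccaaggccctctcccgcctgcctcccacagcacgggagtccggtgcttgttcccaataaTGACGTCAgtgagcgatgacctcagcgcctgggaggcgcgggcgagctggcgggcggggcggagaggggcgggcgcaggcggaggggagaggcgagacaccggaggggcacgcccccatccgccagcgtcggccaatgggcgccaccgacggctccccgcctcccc
Zfp36 (chr7:28379267-28379296, minus strand, CArG box): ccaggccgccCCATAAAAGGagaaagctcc
Nfkbia (chr12:55492648-55492897, minus strand, NF-kB site): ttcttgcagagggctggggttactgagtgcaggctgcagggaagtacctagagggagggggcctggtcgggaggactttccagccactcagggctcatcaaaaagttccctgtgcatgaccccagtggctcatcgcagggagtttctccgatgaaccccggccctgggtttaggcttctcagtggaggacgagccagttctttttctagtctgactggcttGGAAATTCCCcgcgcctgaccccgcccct
The capitals begin 143 bases before the start site in *Dusp1*, 166 bases before it in *Btg2*, 58 bases before it in *Zfp36* and 29 bases before it in *Nfkbia*. None of these 4 matches overlapped a match of another of the 5 motifs. *Maff*, *Ppp1r15a*, *Egr2*, *Dusp5* and *Tnfaip3* also held such sites and were not among the genes that fell with the WD at 24 weeks. A link between the sites and the fall was not tested.

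Depth was similar throughout, at 11568590 to 15163845 counts per sample, so that 3 counts of a gene corresponded to 0.198 to 0.259 CPM. Such floors cover counting error only. All CPM values below are scaled with TMM factors. All 6 Kupffer cell markers, among them *Clec4f* and *Timd4*, exceeded 1 CPM in every sample, and their summed level was 27773 to 38957 CPM over the ResKC groups, 19215 to 27029 CPM in moKCs and 2037 to 14149 CPM in CLEC4F- macs. *Timd4*, which encodes TIM4, had 547 to 1358 CPM in ResKC samples, 2.85 to 30.3 CPM in moKCs and 3.43 to 14.6 CPM in CLEC4F- macs, while *Clec4f* still had 294 to 5488 CPM in the latter. Hepatocyte and endothelial markers exceeded 1 CPM in every sample, at 332 to 3475 CPM and 445 to 2080 CPM in sum. Cholangiocyte markers had 0.0802 to 4.92 CPM in sum, in part below 3 counts. No cholangiocyte marker exceeded 1 CPM in every sample of a group. In bulk samples, a change in the share of a cell type and a change in RNA per cell cannot be told apart. The alignment names in the file headers followed 2 naming schemes, whose meaning is not given in the sources used here: 22 samples had the first and 13 the second. The first was the sole scheme in 2 groups, WD ResKCs after 12 weeks and SD ResKCs after 24, whereas the remaining 4 groups held both. The labels do not tie samples to single mice, so p-values measure the spread between these samples only.

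Per kb of exon (GENCODE M21, mean over the 6 groups), *Fos* was the most abundant of the 45 genes at 620 CPM per kb (RPKM). It was followed by *Dusp1* (408 RPKM), which encodes a MAP kinase phosphatase, the bZIP factor *Cebpb* (366 RPKM), *Junb* (328 RPKM), *Zfp36* (323 RPKM) and *Klf2* (312 RPKM). Among chaperones, the constitutive *Hspa8* led at 292 RPKM and the small heat-shock gene *Hspb1* was lowest at 3.98 RPKM. Lowest of all were the nuclear receptor genes *Nr4a3* (0.233 RPKM) and *Nr4a2* (1.33 RPKM) and the zinc finger gene *Egr3* (1.11 RPKM). Together, the 45 genes took between 0.489% and 2.84% of the counts of a sample, and both of these extremes were SD ResKC samples at 12 weeks. *Hspa1a* and *Hspa1b*, which encode almost the same protein, lie 9952 bases apart on chromosome 17. Their reads may have been split or lost in counting, so the values of both are uncertain.

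The genes varied far more between samples of one group than most genes did. The SD of log2 CPM within groups had a median of 0.87 over the 45 genes and 0.27 over all 13421 genes, and 44 of the 45 lay above the median of all genes, with 19 above the 90th percentile. Among the 4938 genes with a mean log2 CPM over 5, the median was 0.17. The widest was *Fosb*, an AP-1 subunit, with a mean within-group SD of 1.33. It was followed by *Hspa1b* (1.26), the phosphatase gene *Dusp2* (1.18), *Egr1* (1.15) and the orphan nuclear receptor gene *Nr4a1* (1.15). Narrowest were *Cebpb* (0.35), *Myc* (0.29) and *Cebpd* (0.23), and *Cebpd* was the one gene below the median of all genes. Among the genes with a mean log2 CPM over 5, *Cebpd* still lay at percentile 82.3 of the pooled SD.

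**Figure D1:**
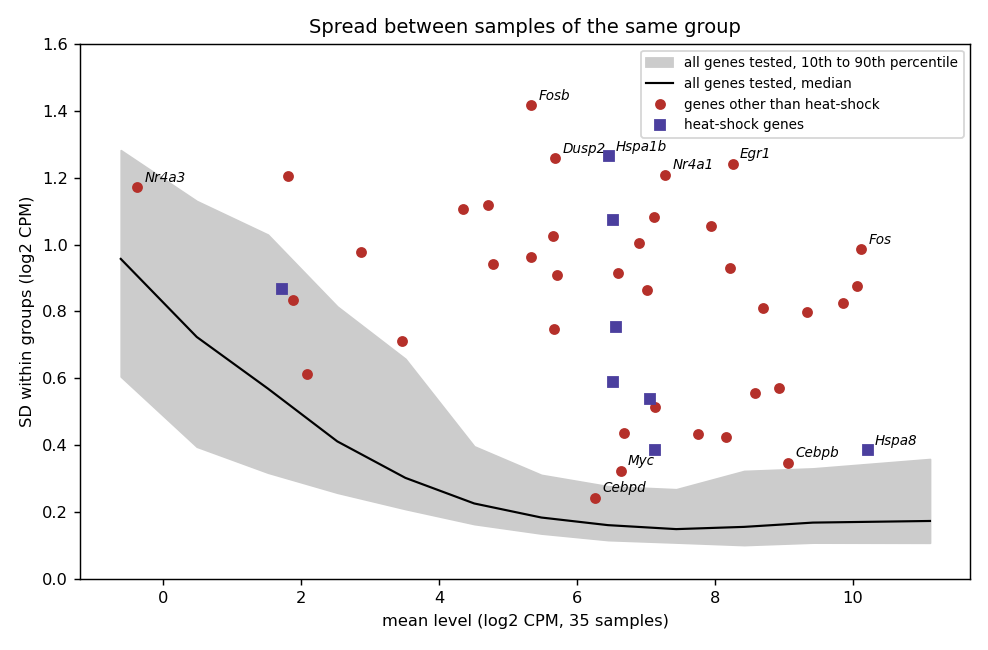
Pooled SD of log2 CPM within groups (y axis) against mean log2 CPM (x axis) for the 45 genes (red circles, and blue squares for heat-shock genes) over the 10th to 90th percentile and median of all genes tested in bins of expression (band and line). Most of the 45 lie above the band, *Fosb* highest, and *Cebpd*, *Myc* and *Cebpb* are lowest.

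In SD ResKCs at 12 weeks, *Dusp2* ranged from 6.45 to 288 CPM (median 67.4 CPM), a 44.6-fold range, and *Fosb* ranged from 8.08 to 266 CPM (median 53.7 CPM), a 32.9-fold range. *Egr1* ranged from 69.7 to 1795 CPM in the same group and *Nr4a1* from 54.6 to 907 CPM. *Cebpd* stayed between 68.8 and 120 CPM and *Myc* between 63.7 and 152 CPM there. The groups themselves differed in spread: the median SD over the 45 genes was 1.05 in SD ResKCs at 12 weeks, 0.94 in moKCs, 0.82 in SD ResKCs at 24 weeks, 0.79 in CLEC4F- macs, 0.56 in WD ResKCs at 24 weeks and 0.49 in WD ResKCs at 12 weeks, while over all genes it lay between 0.25 and 0.27. These SDs were not tested against each other. For *Hspa1b* the widest group was WD ResKCs at 24 weeks, with 21.5 to 281 CPM. Differences between groups accounted for the rest of the variation, and the share within groups had a median of 63.8% over the 45 genes and 67.9% over all genes, with *Cebpd* lowest of the 45 at 19.6%.

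The genes moved together from sample to sample. Averaged over the 37 genes that are not heat-shock genes, the mean deviation of log2 CPM from the gene's mean over all samples ran from -1.24 to 1.69 in SD ResKCs at 12 weeks, where the 3 samples of the first naming scheme lay at 0.73 to 1.69 and the 4 of the second at -1.24 to 0.21. In SD ResKCs at 24 weeks, replicate 1 lay at -0.82 and the other 5 at 0.29 to 1.32. WD ResKCs lay at -0.77 to 0.02 at 12 weeks and at -1.29 to 0.15 at 24 weeks. moKCs ran from -0.86 to 1.21 and CLEC4F- macs from -0.76 to 1.29, in each case with replicate 1 highest. The 8 heat-shock genes followed another order: their mean was below 0 in every one of the 12 ResKC samples at 12 weeks (-1.29 to -0.02), and at 24 weeks it reached 1.58 in SD replicate 6 and 1.00 in WD replicate 4.

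**Figure D2:**
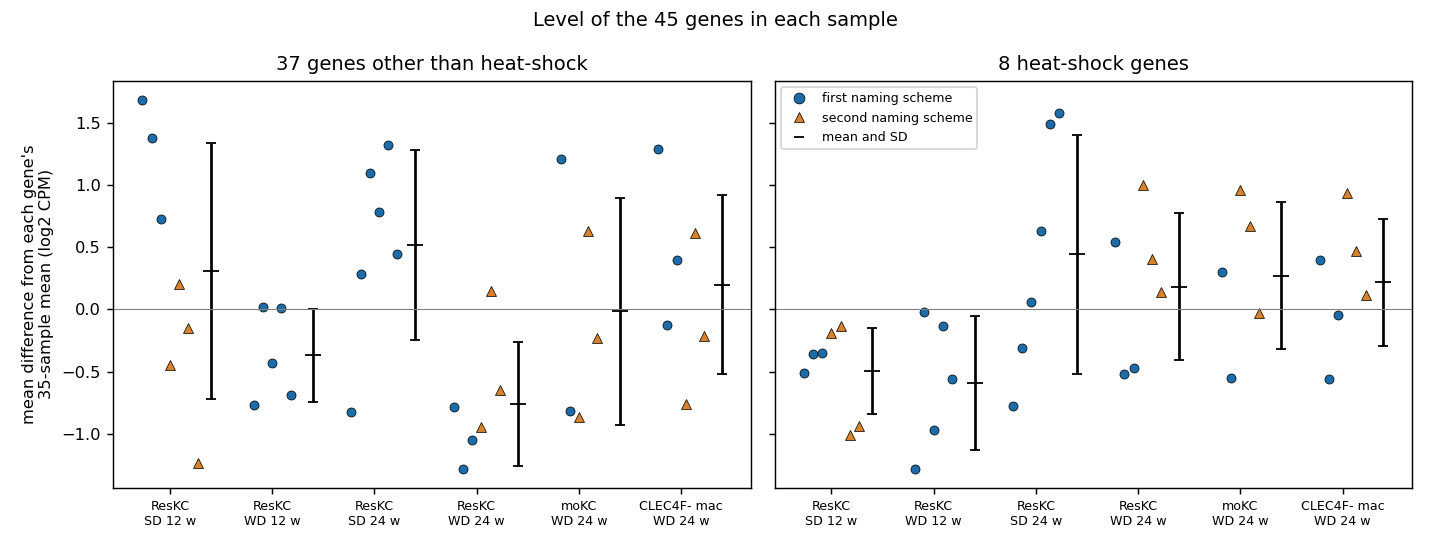
Mean deviation of log2 CPM from each gene's mean over 35 samples, for the 37 genes other than heat-shock genes and for the 8 heat-shock genes, per sample (points, marked by naming scheme) in the 6 groups, with the group mean and SD beside them. At 12 weeks SD ResKC samples of the first scheme (0.73 to 1.69) lie above those of the second (-1.24 to 0.21).

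**Figure D3:**
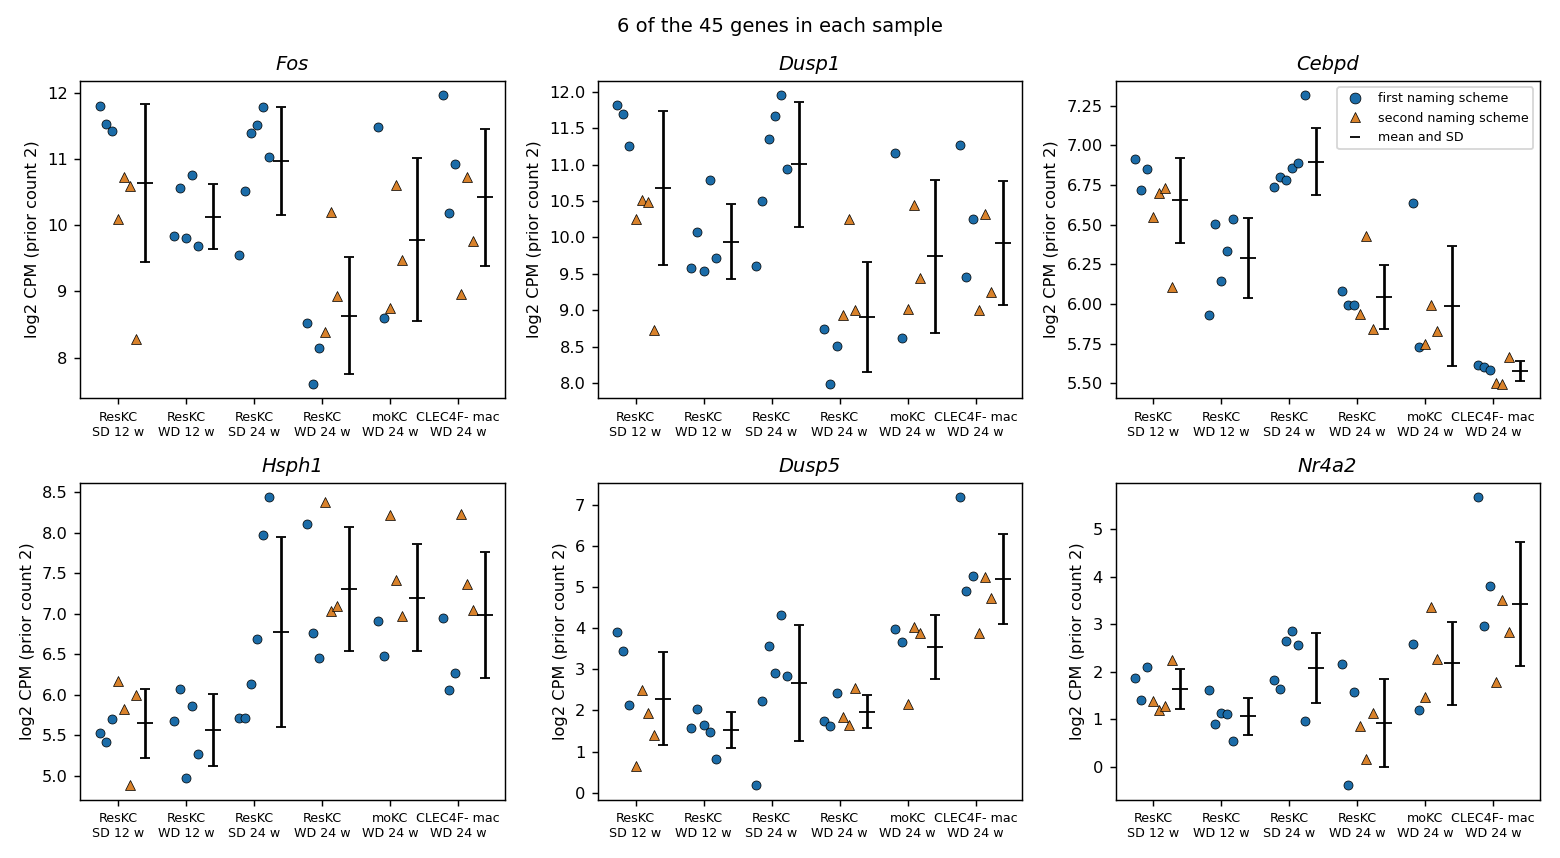
Log2 CPM (prior count 2) of *Fos*, *Dusp1*, *Cebpd*, *Hsph1*, *Dusp5* and *Nr4a2* in each sample of the 6 groups (points, marked by naming scheme), with the group mean and SD beside them. *Cebpd* spans 45.02 to 159 CPM over all samples and *Fos* 195 to 3975 CPM.

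To describe this co-variation, group means were removed and deviations were correlated over the 35 samples. Among the 37 genes other than heat-shock genes, the median Pearson r of 666 pairs was 0.84. Within the 8 heat-shock genes the median of 28 pairs was 0.69, and between both sets it was 0.20 over 296 pairs. The gene that followed the mean of its 37 least was *Nr4a2* (r = 0.41), and those that followed it best were *Junb* and *Fosb* (r = 0.98 for each). Of the heat-shock genes, *Hspa1a* also followed the mean of the 37 (r = 0.71), whereas *Hsp90aa1* (r = -0.02) and *Hsph1* (r = 0.01) did not. These r values share libraries and depth and are given without a test.

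**Figure D4:**
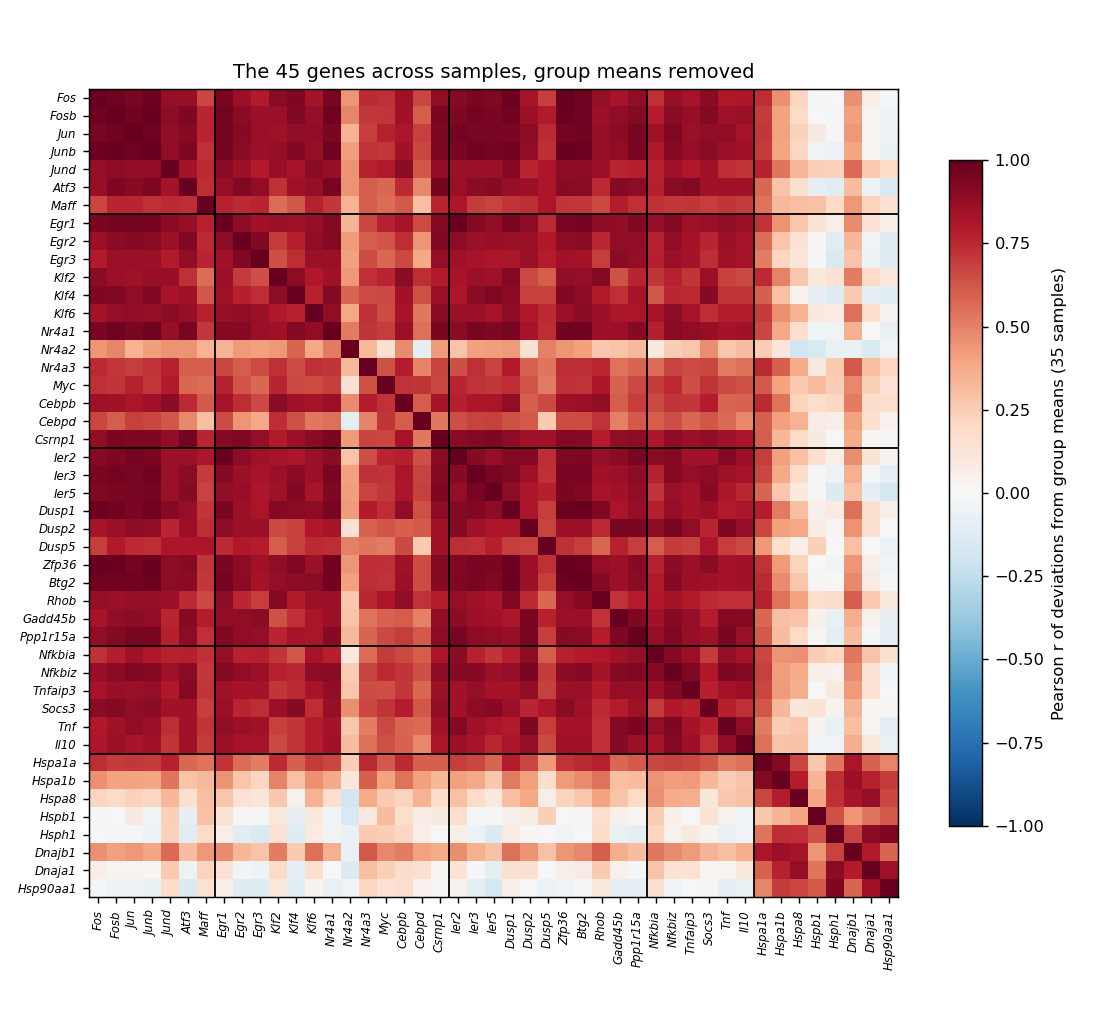
Pearson r between the deviations from group means of all pairs of the 45 genes over 35 samples (colour scale from -1 to 1, genes ordered by list). The block of 37 genes has a median r of 0.84, the block of 8 heat-shock genes 0.69 and the strip between both 0.20.

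Of all pairs, 10 were tested, with samples permuted within groups (two-sided permutation test, 100000 resamples, Benjamini-Hochberg over the 10 pairs). The test takes all samples as independent. Whether samples of different populations share livers is not given, and if they do, the p-values are too small. *Fos* and *Jun*, which form the AP-1 dimer, had r = 0.95 and rho = 0.94 (permutation p = 1e-05 for both, the smallest possible here, adjusted p = 1.11e-05 and 1.25e-05), and r was 0.93 without the 2 samples farthest from the median. *Fos* and *Hspa1a* had r = 0.74 and rho = 0.77 (permutation p = 1e-05 for both, adjusted p = 1.11e-05 and 1.25e-05), with r = 0.84 in the first naming scheme, 0.57 in the second and 0.70 without the 2 farthest samples. *Fos* and *Nfkbia* had the lowest values, r = 0.73 and rho = 0.72 (permutation p = 3e-05 and 4e-05, which the adjustment left as they were). Over all 10 pairs, r was 0.73 to 0.95, rho 0.72 to 0.94, and r without the 2 farthest samples 0.67 to 0.93. Within the naming schemes r was 0.84 to 0.96 in the first and 0.57 to 0.97 in the second.

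WD against SD ResKCs at 12 weeks asked whether the diet had changed these genes early. Of the 45 genes, 42 had lower fitted levels with the WD, yet none passed the test at an adjusted p under 0.05 (edgeR), as did 0.0373% of all genes. At an unadjusted p under 0.05 there were 16 of the 45 against 8.73% of all genes. DESeq2 called 1 gene, *Egr3*, and limma-voom called 0. The median log2 fold change was -0.81 over the 45 genes and 0.02 over all genes, with -0.74 for the 7 AP-1 and small MAF genes, -0.81 for the 13 other transcription factor genes, -1.01 for the 11 early feedback genes, -0.96 for the 6 NF-kB and cytokine feedback genes and -0.09 for the 8 heat-shock genes.

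The 3 smallest p-values at 12 weeks were those of *Egr3*, *Tnf* and *Cebpd*. *Egr3* had 0.649, 1.04, 3.06, 1.36 and 0.617 CPM in the 5 WD samples and 0.709 to 20.8 CPM (median 3.22 CPM) in the 7 SD samples (log2 fold change -2.46, SE 0.76, adjusted p = 0.319, edgeR). SD replicates 1 and 2 were high, at 20.8 and 19.4 CPM, and the other SD samples, at 0.709 to 4.43 CPM, overlapped the WD range. *Tnf*, the inflammatory cytokine gene, had 9.73, 33.2, 22.3, 15.4 and 9.80 CPM with the WD and 7.37 to 159 CPM (median 42.0 CPM) with the SD (log2 fold change -1.77, SE 0.64, adjusted p = 0.413, edgeR). *Cebpd*, a bZIP factor of acute inflammation, had 60.8, 90.5, 70.6, 80.6 and 92.6 CPM with the WD and 68.8 to 120 CPM (median 105 CPM) with the SD (log2 fold change -0.37, SE 0.14, adjusted p = 0.453, edgeR), again with overlap. Within the first naming scheme (3 SD and 5 WD samples), all 37 genes other than heat-shock genes had lower fitted levels with the WD, the median over the 45 was -1.45 and the smallest adjusted p was 0.0552 (edgeR). The second scheme held SD samples only. Over these 4 SD samples, the mean deviation of the 37 genes from their means over all samples was -0.41. It was -0.37 over the 5 WD samples and 1.26 over the 3 SD samples of the first scheme. The 12-week difference therefore lay with the SD samples of the first scheme.

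At 24 weeks, 18 of the 45 genes fell in WD against SD ResKCs and 0 rose, against 8.71% of all genes called and 3.87% called lower. As the genes moved together within groups, these 18 are not independent results. The median log2 fold change was -1.20 over the 45 genes and 0.00375 over all genes. By list, 4 of the 7 AP-1 and small MAF genes fell (median -1.40), as did 5 of the 13 other transcription factor genes (-0.86), 6 of the 11 early feedback genes (-1.69) and 3 of the 6 NF-kB and cytokine feedback genes (-1.56). Of the 8 heat-shock genes, 0 passed (median -0.22, 4 of them with a higher fitted level), with 2 at an unadjusted p under 0.05. DESeq2 called 1 of the 8 lower, *Hspa1a*, and limma-voom called 0. *Hspa1a* and *Hspa1b*, which encode HSP70 chaperones, and the co-chaperone gene *Dnajb1* had log2 fold changes of -1.61, -1.10 and -0.77. *Hspb1* also had a lower fitted level, with a mean of 6.49 CPM with the SD and 4.64 CPM with the WD. *Hsp90aa1*, *Hsph1*, *Dnaja1* and *Hspa8* had log2 fold changes of 0.24, 0.29, 0.11 and 0.04.

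Of the AP-1 genes, *Fosb*, *Fos*, *Jun* and *Junb* fell. *Fosb* had 16.6 to 207 CPM (median 89.0 CPM) with the SD and 5.29 to 50.4 CPM (median 12.9 CPM) with the WD (log2 fold change -2.45, SE 0.77, adjusted p = 0.0414, edgeR). *Fos* had 750 to 3525 CPM (median 2391 CPM) and 195 to 1174 CPM (median 352 CPM) in the same groups (log2 fold change -2.24, SE 0.54, adjusted p = 0.00888, edgeR). In both genes WD replicate 5 was the highest WD sample and SD replicate 1 the lowest SD sample. The groups overlapped, for *Fos* only through these 2 samples. *Jun* had a log2 fold change of -1.43 (adjusted p = 0.0378, edgeR) and *Junb* one of -1.40 (adjusted p = 0.0392, edgeR). *Jund*, *Atf3* and *Maff* did not pass, with log2 fold changes of -0.69, -1.20 and -0.10.

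Among the other transcription factor genes, *Egr1* had 119 to 1572 CPM (median 844 CPM) with the SD and 61.7 to 418 CPM (median 123 CPM) with the WD (log2 fold change -2.22, SE 0.66, adjusted p = 0.0308, edgeR), with overlap. *Klf4* (log2 fold change -2.07, adjusted p = 0.0372, edgeR) and *Klf2* (-1.46, adjusted p = 0.00462) also fell; both encode zinc finger factors that restrain inflammatory activation. *Cebpb*, which drives acute inflammatory genes, fell less, from 493 to 1078 CPM (median 747 CPM) with the SD to 357 to 557 CPM (median 446 CPM) with the WD (log2 fold change -0.69, adjusted p = 0.0223, edgeR). *Cebpd* had 106 to 159 CPM (median 114 CPM) with the SD and 57.2 to 85.8 CPM (median 63.6 CPM) with the WD (log2 fold change -0.86, SE 0.14, adjusted p = 0.000156, edgeR). It was the 1 of the 45 genes whose groups did not overlap, against 1.91% of all genes lower without overlap. *Klf6*, *Csrnp1*, *Egr2*, *Egr3*, *Nr4a2* and *Nr4a3* had log2 fold changes of -1.53 to -0.36 and did not pass. *Nr4a1* had a log2 fold change of -2.01 (adjusted p = 0.0528, edgeR), and *Myc*, which drives growth, had -0.34 (adjusted p = 0.241, edgeR).

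The early feedback genes that fell were *Dusp1* (log2 fold change -2.10, SE 0.49, adjusted p = 0.00665, edgeR), the antiproliferative *Btg2* (-1.91, adjusted p = 0.0174), *Ier2* (-1.82, adjusted p = 0.0403), *Ier3* (-1.78, adjusted p = 0.00741), *Zfp36* (-1.69, adjusted p = 0.0169) and the small GTPase gene *Rhob* (-1.07, adjusted p = 0.005). *Dusp1*, *Btg2* and *Zfp36* are among the genes whose promoters are shown above. *Rhob* had 210 to 565 CPM (median 367 CPM) with the SD and 128 to 286 CPM (median 167 CPM) with the WD, with overlap. *Dusp1* had 781 to 3952 CPM (median 2287 CPM) with the SD and 255 to 1224 CPM (median 460 CPM) with the WD. *Ppp1r15a*, which restarts translation after stress, *Dusp2*, *Gadd45b*, *Dusp5* and *Ier5* had log2 fold changes of -1.80 to -0.84 and did not pass. Of the NF-kB and cytokine feedback genes, *Socs3*, an inhibitor of JAK-STAT signalling, fell (log2 fold change -1.88, adjusted p = 0.0195, edgeR), as did the anti-inflammatory cytokine gene *Il10* (-1.75, adjusted p = 0.00549) and *Nfkbia* (-1.07, adjusted p = 0.0262), whose promoter is also shown. *Tnf* had a log2 fold change of -1.61 (adjusted p = 0.0922, edgeR), and *Nfkbiz* and *Tnfaip3*, whose product ends NF-kB signalling, had -1.51 and -1.36.

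This count depended on the samples. It was 20 within the first naming scheme (17 shared with the 18) and 5 with the scheme as a covariate (*Cebpd*, *Dusp1*, *Il10*, *Klf2* and *Rhob*), where the median log2 fold change was -0.96. Without 1 replicate it ran from 10 (without SD replicate 5, WD replicate 2 or WD replicate 3) to 25 (without SD replicate 1). *Fos*, *Ier3*, *Dusp1*, *Zfp36*, *Btg2*, *Klf2*, *Socs3*, *Rhob*, *Cebpd* and *Il10* passed in each of these 12 fits. Alongside, 1 of 10 hepatocyte markers was called higher and 2 of 7 endothelial markers lower, with endothelial sums of 1163 to 2080 CPM with the SD and 834 to 1289 CPM with the WD, hepatocyte sums of 395 to 1388 CPM with the SD and 1006 to 3438 CPM with the WD, and every one of these markers above 1 CPM in every sample. Of the other lists, 1 stellate cell and 1 B cell marker were called lower and 1 T and NK cell and 1 dendritic cell marker higher. Their part in the result was not tested.

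**Figure D5:**
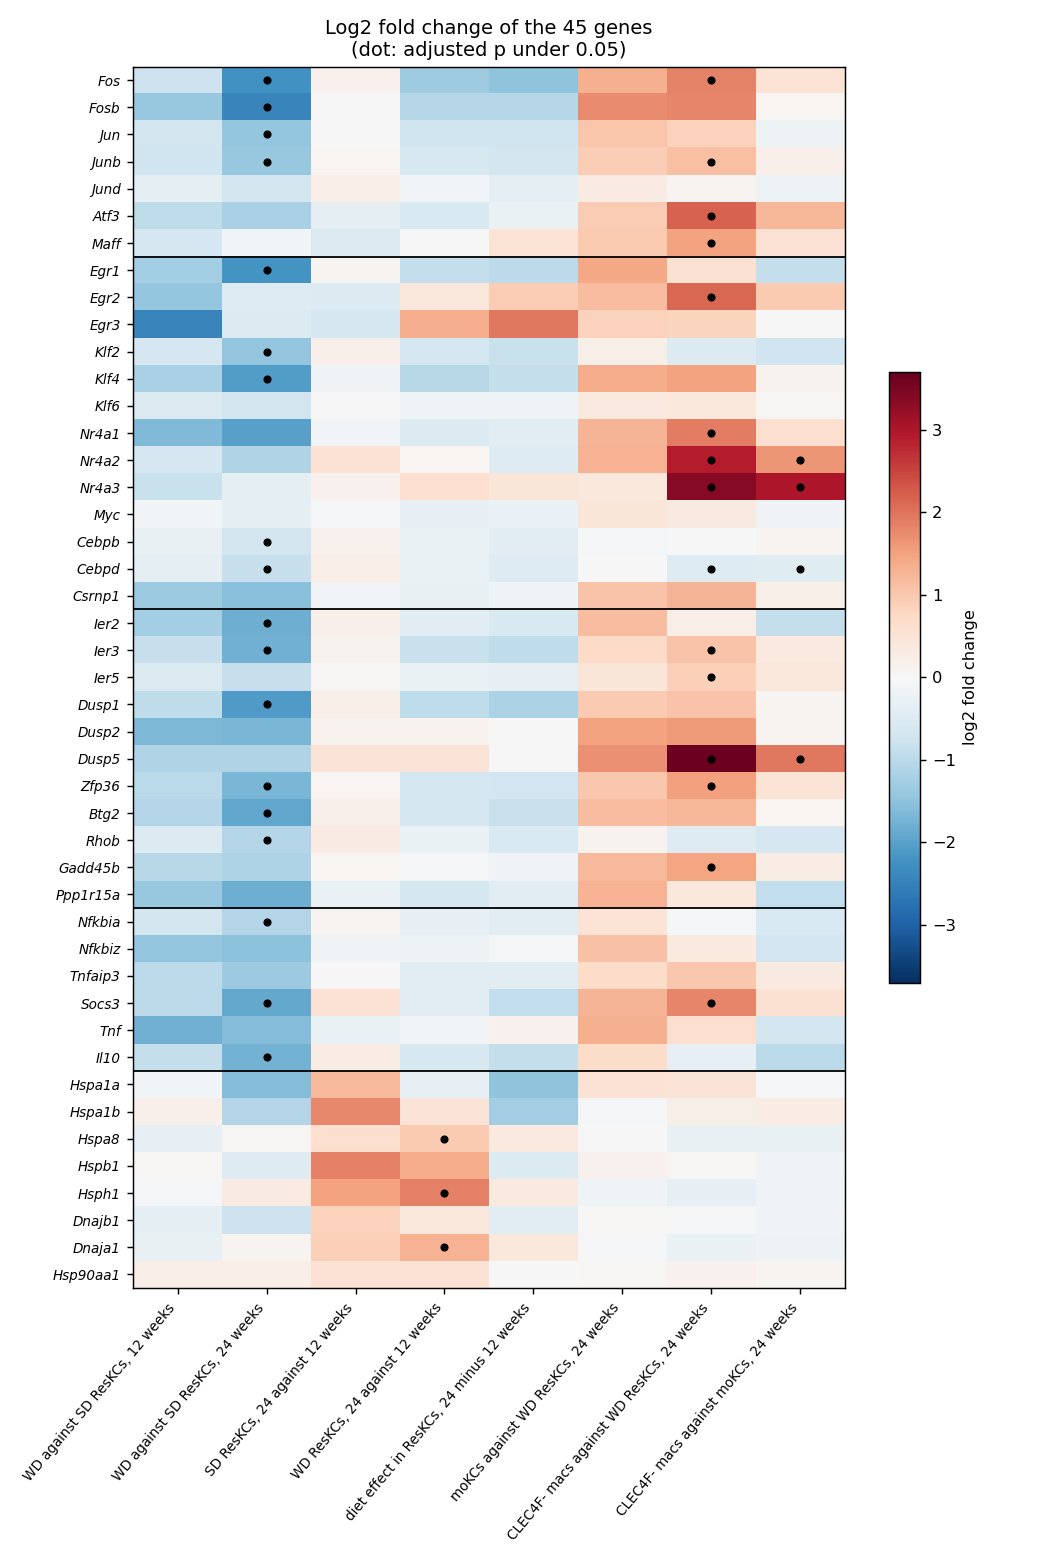
Log2 fold change (colour) of the 45 genes (rows, with lines between AP-1 and small MAF genes, other transcription factor genes, early feedback genes, NF-kB and cytokine feedback genes and heat-shock genes) in 8 comparisons (columns). Dots mark an adjusted p under 0.05 (edgeR): 18 genes in WD against SD ResKCs at 24 weeks, 3 in WD ResKCs at 24 against 12 weeks, 15 in CLEC4F- macs against WD ResKCs and 4 in CLEC4F- macs against moKCs.

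To ask whether the diet effect itself differed between both times, the 24-week and 12-week effects were compared. None of the 45 genes passed (edgeR, DESeq2 and limma-voom), against 0.283% of all genes called by edgeR, and 1 had an unadjusted p under 0.05, against 14.1% of all genes. The smallest p was that of *Cebpd* (difference of log2 fold changes -0.49, adjusted p = 0.236, edgeR), followed by *Fos* (-1.48, adjusted p = 0.361) and *Hspa1a* (-1.50, adjusted p = 0.381). *Hspa1a* had 29.1, 165, 54.3, 115 and 107 CPM with the WD at 12 weeks, 25.7 to 181 CPM (median 118 CPM) with the SD at 12 weeks, 51.6 to 442 CPM (median 219 CPM) with the SD at 24 weeks and 21.9 to 147 CPM (median 68.4 CPM) with the WD at 24 weeks. All 4 groups overlapped in it. Over the 45 genes the median difference was -0.41, and 0.001 with the naming scheme as a covariate. So the 18 genes called at 24 weeks were not shown to respond differently from 12 weeks.

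Time was examined within each diet. In SD ResKCs at 24 against 12 weeks, 0 of the 45 genes and 0% of all genes passed (edgeR), DESeq2 called *Hspb1* and limma-voom called 0. At an unadjusted p under 0.05 there were 8 of the 45 against 9% of all genes, and these 8 were the 8 heat-shock genes, each with a higher fitted level at 24 weeks (log2 fold changes 0.52 to 1.88, median 1.04). The median over all genes was 0.00374 and that of the other 37 genes was 0.06. *Hspb1* had 0.369 to 3.30 CPM (median 1.66 CPM) at 12 weeks and 0.842 to 15.7 CPM (median 3.28 CPM) at 24 weeks (log2 fold change 1.88, SE 0.47, adjusted p = 0.183, edgeR). *Hsph1*, a nucleotide exchange factor for HSP70 chaperones, had 29.3 to 71.9 CPM (median 52.0 CPM) and 52.2 to 347 CPM (median 86.4 CPM) (log2 fold change 1.497, SE 0.41, adjusted p = 0.235, edgeR). *Dnaja1*, a co-chaperone, had 79.5 to 128 CPM (median 95.6 CPM) and 89.6 to 316 CPM (median 146 CPM) (log2 fold change 0.88, SE 0.28, adjusted p = 0.336, edgeR). In these 3 genes replicates 4, 5 and 6 at 24 weeks were above every 12-week sample and replicates 1, 2 and 3 lay within the 12-week range. Without SD replicate 1 at 24 weeks, *Hspb1* passed in edgeR. Within the first naming scheme (3 samples against 6) all 8 heat-shock genes again had higher fitted levels (median 0.82), while the median of the other 37 was -0.57.

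In WD ResKCs at 24 against 12 weeks, 3 of the 45 genes rose, all of them heat-shock genes, and 0 fell, against 3.26% of all genes called and 1.53% called higher. The median log2 fold change of the 8 heat-shock genes was 0.75, that of the 45 genes was -0.26. *Hsph1* had 50.9, 66.8, 31.3, 58.0 and 38.3 CPM at 12 weeks and 87.6 to 333 CPM (median 134 CPM) at 24 weeks (log2 fold change 1.86, SE 0.46, adjusted p = 0.0231, edgeR). *Dnaja1* had 53.9, 109, 65.8, 98.8 and 70.3 CPM and 122 to 292 CPM (median 183 CPM) (log2 fold change 1.27, SE 0.32, adjusted p = 0.0237, edgeR). In both genes every 24-week sample was above every 12-week sample. *Hspa8* had 411, 1155, 639, 902 and 793 CPM and 1146 to 1865 CPM (median 1560 CPM) (log2 fold change 0.97, SE 0.22, adjusted p = 0.0179, edgeR), and overlapped by 1 sample of each group. *Hspb1*, at 1.38, 1.86, 1.96, 2.65 and 1.16 CPM against 3.07 to 6.68 CPM (median 4.62 CPM), did not overlap either but did not pass (log2 fold change 1.36, adjusted p = 0.142, edgeR). Thus 3 of the 45 genes were higher without overlap, against 1.68% of all genes. *Hspa1a* and *Hspa1b*, the inducible HSP70 genes, had log2 fold changes of -0.30 and 0.49 (adjusted p = 0.831 and 0.766, edgeR). Within the first scheme (5 samples against 3) none of the 3 passed (*Hsph1* 1.68, adjusted p = 0.131; *Dnaja1* 1.06, adjusted p = 0.142; *Hspa8* 0.77, adjusted p = 0.150, edgeR), and with the scheme as a covariate only *Hspa8* did. Without WD replicate 3 or 5 at 12 weeks, or WD replicate 1 or 4 at 24 weeks, 1 of the 3 passed.

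The 3 populations of WD-fed mice at 24 weeks were compared next, to place these genes in macs of different origin. The comparisons share samples, so they are not independent of each other or of the diet comparison. The fit paired no samples, and the labels do not say whether samples of these populations share livers. A matching order of samples across the populations is described at the end. In moKCs against WD ResKCs, 0 of the 45 genes passed in edgeR, DESeq2 or limma-voom, against 2.99% of all genes called by edgeR. At an unadjusted p under 0.05 there were 17 of the 45 against 15.9% of all genes. Fitted levels were higher in moKCs for 40 of the 45 (median log2 fold change 0.91). *Dusp5*, a MAP kinase phosphatase gene, had 15.8, 12.5, 4.35, 16.1 and 14.7 CPM in moKCs and 2.91 to 5.68 CPM (median 3.33 CPM) in ResKCs (log2 fold change 1.70, SE 0.56, adjusted p = 0.0922, edgeR), with moKC replicate 3 inside the ResKC range. *Maff*, a small MAF gene, had 5.42, 5.77, 4.12, 8.91 and 5.34 CPM and 1.53 to 4.12 CPM (median 3.19 CPM) (log2 fold change 0.96, adjusted p = 0.163, edgeR). It was the 1 gene of the 45 higher without overlap, by a narrow gap, against 1.04% of all genes. *Nr4a2* had 5.81, 2.14, 2.62, 10.1 and 4.68 CPM and 0.613 to 4.35 CPM (median 1.85 CPM) (log2 fold change 1.27, adjusted p = 0.194, edgeR), with overlap. The median over the 45 genes was 1.32 within the first scheme (2 moKC and 3 ResKC samples) and 0.27 within the second (3 and 3), with 0 called in each. Cell type markers moved with this comparison. All 7 stellate cell markers had higher fitted levels in moKCs (median log2 fold change 1.26, 2 called). In addition, 1 of 5 monocyte and 1 of 4 tested B cell markers were called higher and 2 of 6 Kupffer cell markers lower. TIM4, which *Timd4* on the Kupffer cell list encodes, was used to sort these populations. Stellate cell markers summed to 84.0 to 191 CPM in moKCs against 43.4 to 108 CPM in ResKCs, monocyte markers to 107 to 287 CPM against 87.1 to 147 CPM and B cell markers to 16.5 to 52.1 CPM against 9.87 to 28.8 CPM, with no marker of these lists at 0 in a whole group. Their part in the result was not tested.

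In CLEC4F- macs against WD ResKCs, 14 of the 45 genes were higher and 1 lower in the unpaired fit. Of all genes, 33% were called, 16.1% higher and 17% lower. With the replicate number as a block more of the 45 were called, as given with the other settings below. The median log2 fold change was 0.84. By list, 4 of the 7 AP-1 and small MAF genes rose (*Atf3*, *Fos*, *Maff* and *Junb*), as did 4 of the 13 other transcription factor genes (*Nr4a3*, *Nr4a2*, *Egr2* and *Nr4a1*), 5 of the 11 early feedback genes (*Dusp5*, *Zfp36*, *Gadd45b*, *Ier3* and *Ier5*) and 1 of the 6 NF-kB and cytokine feedback genes (*Socs3*). None of the 8 heat-shock genes passed in edgeR or had an unadjusted p under 0.05 (median -0.03), and DESeq2 and limma-voom called 0 of them. *Cebpd* was the gene that was lower.

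*Dusp5* had 14.7 to 146 CPM (median 33.7 CPM) in CLEC4F- macs and 2.91 to 5.68 CPM (median 3.33 CPM) in WD ResKCs (log2 fold change 3.64, SE 0.57, adjusted p = 4.66e-06, edgeR). *Nr4a3* had 0.709 to 20.7 CPM (median 2.99 CPM) and 0 to 1.49 CPM (median 0.405 CPM) (log2 fold change 3.36, SE 0.82, adjusted p = 0.00151, edgeR), so its ResKC values lay near the floor of 3 counts. *Nr4a2* had 3.29 to 51.0 CPM (median 9.50 CPM) and 0.613 to 4.35 CPM (median 1.85 CPM) (log2 fold change 2.90, SE 0.51, adjusted p = 3.1e-05, edgeR). Replicate 1 of the CLEC4F- macs was the highest sample for these 3 genes, and the groups of *Nr4a3* and *Nr4a2* overlapped. *Atf3*, a stress-induced bZIP factor, had 122 to 773 CPM (median 267 CPM) and 47.3 to 118 CPM (median 55.7 CPM) (log2 fold change 2.19, adjusted p = 0.000702, edgeR). *Maff* had 6.36 to 13.2 CPM (median 7.64 CPM) and 1.53 to 4.12 CPM (median 3.19 CPM) (log2 fold change 1.49, adjusted p = 0.00126, edgeR). *Dusp5*, *Atf3* and *Maff* were the 3 genes of the 45 that were higher without overlap, against 7.18% of all genes.

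Of the others that rose, the fitted log2 fold changes were 2.12 for *Egr2* (adjusted p = 0.00294, edgeR), 1.89 for *Nr4a1* (0.0261), 1.83 for *Fos* (0.00728), 1.81 for *Socs3* (0.00579), 1.504 for *Zfp36* (0.00826), 1.47 for *Gadd45b* (0.0269), 1.11 for *Junb* (0.0469), 1.05 for *Ier3* (0.0485) and 0.87 for *Ier5* (0.0166). *Ier3* had 21.7 to 114 CPM (median 50.8 CPM) in CLEC4F- macs and 18.3 to 57.5 CPM (median 23.3 CPM) in WD ResKCs, and *Ier5* had 100 to 327 CPM (median 178 CPM) and 68.2 to 154 CPM (median 96.1 CPM), both with overlap. *Cebpd* had 45.02 to 50.5 CPM (median 48.0 CPM) in CLEC4F- macs and 57.2 to 85.8 CPM (median 63.6 CPM) in WD ResKCs (log2 fold change -0.48, adjusted p = 0.00667, edgeR). It was the 1 gene of the 45 lower without overlap, against 8.81% of all genes. *Egr1* (0.57), *Tnf* (0.63), *Il10* (-0.32) and *Klf2* (-0.51) did not pass.

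The naming schemes differed here as well. Within the first (3 against 3), 22 genes were higher, among them the same 14, with a median of 1.48 over the 45 genes. Within the second (3 against 3), 3 were higher and 1 lower, with a median of 0.23, and *Dusp5* (log2 fold change 2.70, adjusted p = 0.00572, edgeR) and *Nr4a2* (2.19, adjusted p = 0.022) were among those that passed, while *Nr4a1* (0.55, adjusted p = 0.677) and *Nr4a3* (1.53, adjusted p = 0.372) were not. Without CLEC4F- replicate 1 the count was 9, and without WD ResKC replicate 5 it was 22. Cell type markers moved with this comparison. All 6 Kupffer cell markers and 3 of 7 endothelial markers were called lower in CLEC4F- macs. Called higher were 3 of 5 monocyte, 3 of 7 stellate cell, 4 of 4 tested B cell, 3 of 3 tested T and NK cell and 1 of 4 tested dendritic cell markers. *Clec4f* and *Timd4*, on the Kupffer cell list, encode the proteins used for sorting. The paper names *Chil3* and *Ccr2*, on the monocyte list, as specific to the CLEC4F- macs themselves. Monocyte markers summed to 358 to 1362 CPM against 87.1 to 147 CPM, B cell markers to 28.3 to 169 CPM against 9.87 to 28.8 CPM, and T and NK cell markers to 6.08 to 22.4 CPM against 1.05 to 4.10 CPM. None of these markers was at 0 in every sample of either group, and their part in the result was not tested.

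In CLEC4F- macs against moKCs, 3 of the 45 genes were higher and 1 lower, against 16.4% of all genes called, 7.09% called higher and 9.34% called lower. *Nr4a3* rose by a log2 fold change of 2.98 (SE 0.85, adjusted p = 0.0128, edgeR), with 1.16, 0.214, 0.599, 0.954 and 0.512 CPM in moKCs. The lowest of these values lay at the floor of 3 counts, and without CLEC4F- replicate 1 the log2 fold change was 1.84. *Dusp5* rose by 1.95 (SE 0.55, adjusted p = 0.0122, edgeR) and *Nr4a2* by 1.63 (adjusted p = 0.0241), and their ranges overlapped those of moKCs given above. *Cebpd*, at 99.2, 53.0, 53.5, 63.5 and 56.7 CPM in moKCs, was lower in every CLEC4F- mac sample (log2 fold change -0.45, adjusted p = 0.0265, edgeR), as were 4.2% of all genes without overlap. The median over the 45 genes was 0.07. Without CLEC4F- replicate 1, 0 genes passed, and without CLEC4F- replicate 5, 5 genes did. Within the first scheme 2 passed, *Nr4a2* (2.60, adjusted p = 0.0267, edgeR) and *Cebpd*, and within the second 0. Of the marker lists, 4 of 6 Kupffer cell and 3 of 7 endothelial markers were called lower in CLEC4F- macs, and 3 of 5 monocyte, 2 of 4 tested B cell, 1 of 3 tested T and NK cell, 1 of 3 tested neutrophil and 1 of 4 tested dendritic cell markers higher, with summed monocyte markers at 358 to 1362 CPM against 107 to 287 CPM and endothelial markers at 445 to 691 CPM against 745 to 1781 CPM. Their part in the result was not tested.

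Other genes of the same pathways, taken from lists of genes that are not among the 45, were counted in the same fits. Of all genes, 0.0373% were called with the WD at 12 weeks. At 24 weeks 8.71% were called, 3.87% of all genes as lower. At 12 weeks with the WD, 1 of 36 other early response genes fell (*Klf3*, log2 fold change -0.36, adjusted p = 0.0474, edgeR) and 0 of the other lists passed. At 24 weeks, 8 of 36 other early response genes fell, led by *Sgk1* (log2 fold change -0.85, adjusted p = 0.00192, edgeR) and *Id3* (-0.85, adjusted p = 0.00449), with a list median of -0.44. Of 29 other NF-kB pathway genes 8 fell and 1 rose (median -0.43), with the chemokine gene *Ccl3* (log2 fold change -1.91, adjusted p = 0.0103, edgeR) and *Nfkbie* (-0.56, adjusted p = 0.0136) having the smallest p. Of 29 other bZIP, SRF and MAP kinase genes 3 fell (median -0.05), led by *Map3k8* (-0.70, adjusted p = 0.0118, edgeR) and *Batf* (-0.60, adjusted p = 0.0212). Of 36 other chaperone genes, *Hspa9* rose (log2 fold change 0.25, adjusted p = 0.0316, edgeR) and *Dnajb4* fell (-0.58, adjusted p = 0.0455), with a median of 0.06.

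In WD ResKCs at 24 against 12 weeks, 1 of the 36 other chaperone genes rose, *Chordc1*, an HSP90 co-chaperone gene (log2 fold change 1.11, adjusted p = 0.0208, edgeR). There *Rgs2* fell among the early response genes (-0.55, adjusted p = 0.0381, edgeR), and of the 29 bZIP, SRF and MAP kinase genes 2 rose and 1 fell, the one that fell being *Batf3* (-0.50, adjusted p = 0.0231, edgeR). Of all genes, 3.26% were called in WD ResKCs over time. In SD ResKCs over time and in the difference of diet effects, 0 genes of these lists passed in edgeR, against 0% and 0.283% of all genes. The share of all genes called in moKCs against WD ResKCs was 2.99%. In moKCs against WD ResKCs, *Pim1* (log2 fold change 1.49, adjusted p = 0.0455, edgeR) and *Ccl3* (1.70, adjusted p = 0.0474) rose and *Tnfaip2* fell (-0.42, adjusted p = 0.0289).

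Of all genes, 33% were called in CLEC4F- macs against WD ResKCs, 16.1% higher and 17% lower. Against moKCs the share was 16.4%, with 7.09% higher and 9.34% lower. In CLEC4F- macs against WD ResKCs, 15 of the 36 other early response genes rose and 4 fell, with *Pim1* (log2 fold change 2.41, adjusted p = 2.27e-05, edgeR) and *Ifrd1* (1.36, adjusted p = 3.02e-05) having the smallest p. Of the NF-kB pathway genes 11 of 29 rose and 3 fell, with *Traf1* at 3.28 (adjusted p = 1.31e-06, edgeR) and *Tnfaip2* at -1.01 (adjusted p = 4.02e-09). Of the bZIP, SRF and MAP kinase genes 6 of 29 rose and 4 fell, with the kinase genes *Map2k1* at 0.29 (adjusted p = 3.68e-05, edgeR) and *Map2k2* at -0.27 (adjusted p = 0.000535). Of the chaperone genes 0 of 36 rose and 3 fell, with *Hspa13* at -0.46 (adjusted p = 0.000376, edgeR) and *Hspa4l* at -0.90 (adjusted p = 0.00313). Against moKCs, 4 bZIP, SRF and MAP kinase genes rose and 3 fell (*Map2k1* 0.29, adjusted p = 0.000227; *Batf2* -0.74, adjusted p = 0.00251, edgeR), 1 early response gene rose and 1 fell (*Sik1* 2.31, adjusted p = 0.00352; *Klf3* -0.34, adjusted p = 0.00082), 3 NF-kB pathway genes rose and 3 fell (*Tnip3* 1.47, adjusted p = 0.00252; *Tnfaip2* -0.59, adjusted p = 0.000157) and 0 chaperone genes passed.

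Over the 35 samples, with group means removed, the genes outside the 45 that were most like their mean deviation were *Ccrl2* (Pearson r = 0.95), *Id3* (0.94), *Cxcl2* (0.94), *Pim3* (0.93), *Ccl4* (0.93), *Nfkbid* (0.91), *Ccl3* (0.90), *Ccl2* (0.90), *Cd14* (0.89) and *Hilpda* (0.88). The median r of the 13376 genes outside the 45 was -0.02, and 36 of them exceeded 0.8, as did 31 of the 45 genes against the mean of the other 44. These likenesses share libraries and depth and were not tested.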

How the data were processed

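Bulk RNA-seq of sorted liver macs was measured in 35 samples. The authors sequenced TruSeq libraries as single reads on a NextSeq500, checked them with FastQC 0.11.9, aligned them to mm10 with HISAT2 2.2.0 and SAMtools 1.10 and counted reads per gene with featureCounts 2.0.0. The deposited values are raw counts per gene symbol, 1 file per sample. The annotation, the strand setting and the treatment of reads with several hits are not given in the sources used here.

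The 45 genes, the other lists and the tests were chosen with earlier results of these data known. The 13421 genes that exceeded 1 CPM in 5 or more samples were tested. One edgeR 4.0.16 quasi-likelihood fit (R 4.3.3, TMM factors, 6 group means, all 35 samples) gave 8 comparisons, with Benjamini-Hochberg adjustment over all genes tested, an adjusted p under 0.05 as the limit and no limit on fold. Log2 CPM used a prior count of 2, and spread is the SD of log2 CPM within groups. Correlations used deviations from group means, with permutations within groups for the 10 pairs tested. RPKM divides CPM by the exon length of GENCODE M21. Alternatives were DESeq2 1.42.0, limma-voom (limma 3.58.1), library size alone, no filter, the compared groups alone, the replicate number as a block, the naming scheme as a covariate, stricter limits, each replicate left out and, added after the data were seen, fits within 1 naming scheme. The scripts were tested on simulated data. None of the 86 pairs of samples within groups agreed within sampling noise.

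Named with values are, in each comparison, the 3 genes with the highest and the 3 with the lowest log2 fold change among those that passed or, where none passed, the 3 with the smallest p. Added to these are the 5 genes of widest and the 3 of narrowest spread, the 2 genes of smallest p in each other list where any passed, and the 10 most alike genes. *Dusp1*, *Maff*, *Atf3*, *Hspb1* in WD ResKCs and other genes given with values were chosen after their values were seen. One result of smallest p in the other lists is not reported here.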

Additional observations from a re-analysis of the deposited data

Results flagged for a closer look

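Within groups of 5 to 7 samples, 132 sets of values, those of 20 named genes and of the mean deviations of the 37 and the 8 genes, were searched for a single sample far from the rest by Dixon's ratio (the gap to the nearest sample over the whole range, on the log2 scale), and 4 passed its critical value (3.03%), where chance alone gives about 1 in 20. *Egr3* was high in WD ResKC replicate 5 at 24 weeks, at 5.79 CPM against 2.63 to 3.30 CPM in the other samples (ratio 0.717). *Cebpd* was high in SD ResKC replicate 6 at 24 weeks, at 159 CPM against 106 to 118 CPM (ratio 0.735), and in moKC replicate 1, at 99.2 CPM against 53.0 to 63.5 CPM (ratio 0.712). *Dusp5* was low in moKC replicate 3, at 4.35 CPM against 12.5 to 16.1 CPM (ratio 0.808).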

How the results depend on the processing

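The counts of genes past the limit moved with several settings, and the cause was not tested. For WD against SD ResKCs at 24 weeks (18 genes), the count was 28 with the compared groups alone, 5 with the naming scheme as a covariate and 4 with stricter limits (1.5 on the log2 scale and 0.01 for the adjusted p). For CLEC4F- macs against WD ResKCs (15), it was 4 within the second naming scheme and 8 with the stricter limits. For WD ResKCs over time (3), it was 1 with the scheme as a covariate, 0 within the first scheme and 0 with the stricter limits. For CLEC4F- macs against moKCs (4), it was 1 with limma-voom, 2 with the compared groups alone, 2 within the first scheme, 0 within the second and 0 with the stricter limits. DESeq2 called 1 gene at 12 weeks and 1 in SD ResKCs over time, and the compared groups alone gave 1 for moKCs against WD ResKCs. With edgeR's tagwise coefficient of variation, the median over the 45 genes was 0.553, against 0.184 over all genes. Leaving out 1 replicate gave 0 to 0 genes at 12 weeks, 10 to 25 for the diet at 24 weeks, 0 to 1 for SD ResKCs over time, 1 to 3 for WD ResKCs over time, 0 to 0 for the difference of diet effects, 0 to 0 for moKCs, 9 to 22 for CLEC4F- macs against WD ResKCs and 0 to 5 against moKCs, and a median spread of 0.84 to 0.88. With the replicate block the count was 27 for the diet at 24 weeks, 26 for CLEC4F- macs against WD ResKCs (22 higher and 4 lower, including the 15), 1 against moKCs and 2 for WD ResKCs over time, and 0 in the other comparisons. The labels do not say whether samples of the same replicate number share a mouse. In no comparison did every such pair correlate above 0.1 (means -0.11 to 0.12), so the block was not taken as a paired design. Both the correlations and the block matched equal replicate numbers. The moKC numbers do not line up with those of the other populations in the order described below, so for moKCs neither can decide on pairing. For CLEC4F- macs and WD ResKCs the 6 pairs correlated at 0.02 to 0.26, and 8 of these 12 samples correlated best with their own number, a hint from the data only. Of 52 results for single genes, none reversed in any of these settings: of 653 values without 1 replicate, 550 kept their side of the limit, 102 lost the call and 1 gained it. Only the calls of the comparisons with 18, 15, 3 and 4 genes could be lost, since the other results had no call in the main fit. Of the other settings, the scheme covariate lost 19 calls and left 33 results on their side of the limit. The second scheme alone, which could be fitted for fewer results, lost 16 and left 6. limma-voom lost 10 calls and the first scheme alone 7.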

Other observations

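Samples from WD-fed mice at 24 weeks were set in the order of their replicate numbers within each naming scheme. Both means below then ranked the same way in all 3 populations. In the second scheme, the mean deviation of the 37 genes other than heat-shock genes was -0.95, 0.15 and -0.65 in ResKC replicates 4, 5 and 6. It was -0.76, 0.62 and -0.21 in CLEC4F- mac replicates 4, 5 and 6, and -0.86, 0.63 and -0.23 in moKC replicates 3, 4 and 5. The mean of the 8 heat-shock genes was 1.00, 0.41 and 0.14 in these ResKC samples, 0.94, 0.47 and 0.11 in the CLEC4F- macs and 0.97, 0.67 and -0.03 in the moKCs. *Hsph1* had 333, 131 and 137 CPM in the ResKC samples, 298, 170 and 125 CPM in the moKC samples and 300.1, 165 and 132 CPM in the CLEC4F- mac samples. In the first scheme, the mean of the 37 genes was -0.79, -1.29 and -1.05 in ResKC replicates 1, 2 and 3. It was 1.29, -0.13 and 0.40 in CLEC4F- mac replicates 1, 2 and 3, and 1.21 and -0.82 in moKC replicates 1 and 2. The mean of the 8 heat-shock genes was 0.54, -0.52 and -0.47, then 0.40, -0.56 and -0.04, then 0.30 and -0.55 in the same samples. The labels do not say whether any of these samples share livers, and this was seen in the values rather than planned.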
